A study of Mus musculus with 8 samples.

Results

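The 9 genes of creatine kinase and adenylate energy buffering followed here were Ckm, Ckmt2, Ckb, Gatm, Gamt, Slc6a8, Ak1, Ampd1 and Ampd3. They were listed by name as the members of a pathway, and all 9 were found among the 55487 genes of the deposited table. The RNA came from skeletal muscle of 8 male C57BL/6J mice aged 10 weeks, whose hindlimbs were held in casts for 8 days. All mice received K14Q MOTS-c, a variant of the mitochondrial-derived peptide MOTS-c with a glutamine in place of a lysine, at 15 mg/kg/day given as 2 intraperitoneal injections a day. The sample labels name the muscle as vastus lateralis, whereas the design text and the methods of the study name gastrocnemius. Mice without a cast, mice with a cast and no peptide, and mice given the unmodified peptide were not analysed here, so the values below describe casted and K14Q MOTS-c-treated muscle and hold no effect of either. Replicates are called mouse 1 to mouse 8 after their label numbers.

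Creatine kinases move a phosphate group between ATP and creatine, which lets a muscle fibre keep a reserve of phosphocreatine and refill ATP within moments of a contraction. The mitochondrial form charges creatine beside the site of ATP export, and the cytosolic forms use phosphocreatine where ATP is spent. Creatine itself is made from arginine and glycine in a pair of steps, largely in kidney and liver, and enters muscle through a sodium-dependent transporter. When ATP is spent faster than it is refilled, adenylate kinase joins ADP molecules into ATP and AMP, and AMP deaminase then turns AMP into IMP, the first step of the purine nucleotide cycle.

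The recovered totals were 23985356 to 33012497 counts per library, and 15135 genes, the 9 described here among them, reached a minimum of 10 counts in each library. Values are normalized counts, which are counts divided by 1 size factor per library. Levels of different genes are compared as normalized counts per kb of merged exon length. The fast fibre markers were Myh4, Mybpc2, Pvalb, Actn3 and Tnnt3, listed as fast 2B though not all are particular to 2B fibres. They summed to 1273950 to 2839010 normalized counts, against 7201 to 17123 for the slow fibre markers. All markers of both lists were counted in every library. The kidney or liver markers summed to 0 to 6.65 normalized counts. All counts are from whole tissue, in which fewer cells of a type and less RNA per cell cannot be told apart.

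The 3 creatine kinase genes span the widest range of levels among the 9 genes, so the sequence before their RefSeq starts is shown for comparison (GRCm38.p6, 5′ to 3′ on the strand of the gene). Capitals mark matches on either strand to CANNTG (the E-box read by myogenic factors), TATANA (the core promoter motif of many tissue-specific genes), CCAAT, or the GC box GGGCGG. The Ckm stretch is chr7:19410844-19411024 on the plus strand, the part of its 250-base window that lies outside annotated exons, within the span of a longer annotated Ckm transcript. The Ckmt2 stretch is chr13:91876886-91877135 and the Ckb stretch chr12:111672339-111672588, both on the minus strand and directly before the gene.
Ckm: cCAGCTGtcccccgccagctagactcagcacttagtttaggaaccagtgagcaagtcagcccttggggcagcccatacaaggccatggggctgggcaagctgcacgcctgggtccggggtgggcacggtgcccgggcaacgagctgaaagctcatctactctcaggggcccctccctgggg
Ckmt2: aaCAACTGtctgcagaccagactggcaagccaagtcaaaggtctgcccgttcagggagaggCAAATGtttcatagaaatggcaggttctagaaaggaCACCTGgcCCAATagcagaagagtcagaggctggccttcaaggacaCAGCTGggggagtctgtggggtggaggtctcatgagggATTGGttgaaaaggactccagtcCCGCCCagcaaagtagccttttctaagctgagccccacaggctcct
Ckb: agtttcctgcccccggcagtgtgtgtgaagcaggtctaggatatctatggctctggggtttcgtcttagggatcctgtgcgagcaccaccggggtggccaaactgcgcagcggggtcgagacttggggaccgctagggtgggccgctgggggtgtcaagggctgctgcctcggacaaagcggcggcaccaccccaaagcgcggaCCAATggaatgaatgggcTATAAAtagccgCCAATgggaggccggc

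The Ckm window held 1 CANNTG match, CAGCTG, at 249 to 244 bases before the start, and 2 overlapping TATANA matches at 33 to 28 and 31 to 26 bases before it, in the stretch that is not printed. The Ckmt2 window held 4 CANNTG, 2 CCAAT and 1 GGGCGG matches and none to TATANA. The Ckb window held no CANNTG match, 1 TATANA match at 28 to 23 bases and 2 CCAAT matches at 46 to 42 and 16 to 12 bases before the start. These are letters in a window and not measured binding sites. Of 32817 promoter windows of 250 bases, 66.2% held CANNTG, 22.6% held TATANA, 33.8% held CCAAT and 32.7% held GGGCGG. The RefSeq table held 7 of the 9 genes, and Slc6a8 and Ampd1 were without an entry.

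Ckm encodes the muscle-type cytosolic creatine kinase and was the most abundant of the 9 genes. On chromosome 7 (19404776 to 19422841, plus strand), it had 158480 normalized counts in mouse 4, a median of 241697, and 292044 in mouse 8. Mice 3, 4 and 5 were the lowest, mouse 6 lay between, and mice 1, 2, 7 and 8 were all at 265709 normalized counts or above. The mean was 228742 ± 55716 normalized counts (SD, n = 8), a coefficient of variation (CV, the SD as a percent of the mean) of 24.4%, while counting error alone gives 0.216%. Ckm took 0.601% of the counts in mouse 4 (95% Clopper-Pearson interval 0.598 to 0.604, counting error only) and 0.974% in mouse 8 (0.970 to 0.977). An antisense gene, A930016O22Rik, overlaps Ckm and had 74.8 to 169 normalized counts. Whether the counting used strand is not given in the sources used here.

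Ckmt2 encodes the sarcomeric mitochondrial creatine kinase. On chromosome 13 (91853387 to 91876885, minus strand), it had 2850 normalized counts in mouse 4, a median of 4693, and 6597 in mouse 1. As for Ckm, mice 3 and 4 held the lowest values, but mouse 5, which was above only mice 3 and 4 for Ckm, was also above mice 2 and 6 for Ckmt2, at 5246 normalized counts. Its mean was 4756 ± 1334 normalized counts (SD, n = 8).

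Ckb encodes the brain-type cytosolic creatine kinase, which muscle fibres largely replace with Ckm as they mature. On chromosome 12 (111669361 to 111672338, minus strand), it had 39.0 normalized counts in mouse 3, a median of 49.4, and 62.7 in mouse 2. Its values in the 8 libraries rested on 39 to 66 counts. Counting error alone gives a CV of 14.3% beside the measured 17.4%, which leaves the order of the mice uncertain. The processed pseudogenes Ckb-ps1 and Ckb-ps2, and the other mitochondrial gene, Ckmt1, were near or at 0, with Ckmt1 at 0 to 4.42 normalized counts.

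Per kb of exon, Ckm made up 94.7% to 97.0% of the 3 creatine kinase genes, with a mean of 96.0% ± 0.706 (SD, n = 8). Ckmt2 made up 2.96% to 5.29% and Ckb 0.0141% to 0.0313%. The within-mouse ratio of Ckm to Ckmt2 per length was lowest at 17.9 in mouse 5, had a median of 24.4, and was highest at 32.7 in mouse 2. The ratio of Ckm to Ckb ran from 3024 in mouse 5 to 6798 in mouse 8. Mouse 5 had the lowest of both ratios, and its Ckm share of the family was also the lowest.

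**Figure D1:**
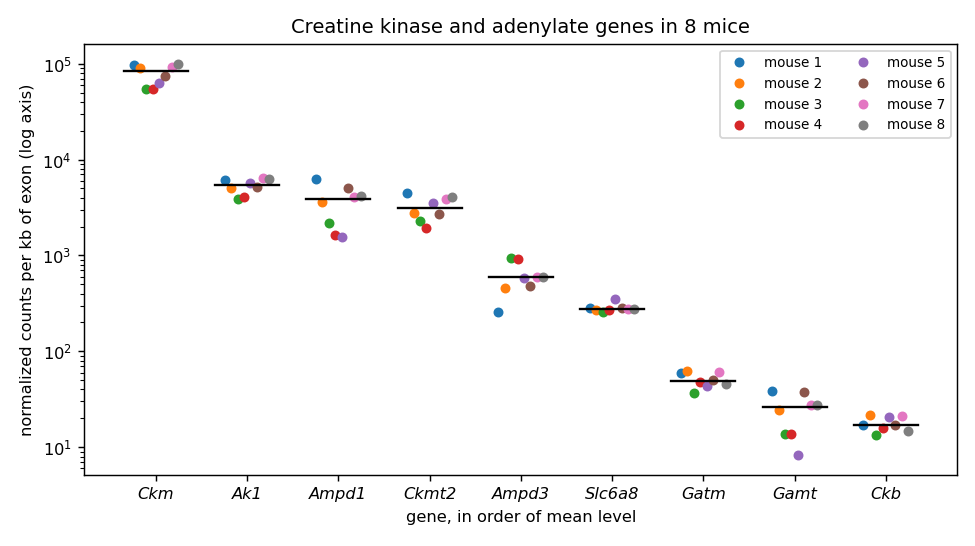
Normalized counts per kb of merged exon (log axis) of the 9 genes in the 8 mice, in order of mean level. Each point is a mouse and each bar the median. Ckm stands apart from Ak1 in every mouse, Ampd1 and Ckmt2 overlap, as do Gamt and Ckb, and Ampd1, Ampd3 and Gamt are the most spread.

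Gatm encodes the amidinotransferase that makes guanidinoacetate, the first step of creatine synthesis. On chromosome 2 (122594467 to 122611303, minus strand), it had 111 normalized counts in mouse 3, a median of 146, and 187 in mouse 2. Mice 1, 2 and 7 were above 179 normalized counts, and the other 5 were at or below 150. The mean was 153 ± 27.7 normalized counts (SD, n = 8).

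Gamt encodes the methyltransferase that turns guanidinoacetate into creatine. On chromosome 10 (80258151 to 80261012, minus strand), it had 11.9 normalized counts in mouse 5, a median of 37.5, and 56.3 in mouse 1. Mice 3, 4 and 5 were at or below 19.9 normalized counts, mice 2, 7 and 8 between 35.7 and 39.7, and mice 1 and 6 at 53.8 and above. Although these values rest on only 13 to 55 counts, the CV of 46.9% was well above the 19.3% of counting error, and 98.3% of the 15135 genes had a lower CV. The ratio of Gatm to Gamt per length was lowest in mouse 6, had a median of 2.37, and was highest at 5.33 in mouse 5. Kidney and liver are the main sites of both enzymes, and of the markers of those organs Apoa1, Umod and Slc34a1 were at 0 in all 8 libraries and Alb at 0 to 6.65 normalized counts.

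Slc6a8 encodes the creatine transporter, the way by which muscle takes up most of its creatine. On chromosome X (73673150 to 73682502, plus strand), it had 1352 normalized counts in mouse 3, a median of 1423, and 1836 in mouse 5. With the deposited size factors, the other 7 mice lay between 1352 and 1491 normalized counts, and mouse 5 stood alone above them. With a mean of 1480 ± 150 normalized counts (SD, n = 8), its CV of 10.1% was the lowest of the 9 genes and the only one below the median of 15.6% over the 15135 genes. Per length, Slc6a8 was 4.37 times Gatm in mouse 2 and 8.01 times Gatm in mouse 5.

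Ak1 encodes the main adenylate kinase of the muscle cytosol. On chromosome 2 (32621758 to 32635058, plus strand), it had 10059 normalized counts in mouse 3, a median of 14050, and 16599 in mouse 7. Mice 3 and 4 were the lowest, as for Ckm and Ckmt2, with every other mouse at 13111 normalized counts or above. The mean was 13821 ± 2498 normalized counts (SD, n = 8). The ratio of Ckm to Ak1 per length had a CV of 13.8%, the steadiest of the 6 ratios computed, and ran from 11.2 in mouse 5 to 18.0 in mouse 2.

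Ampd1 encodes the AMP deaminase typical of skeletal muscle, and inherited loss of it is a common enzyme defect of human muscle. On chromosome 3 (103074014 to 103099720, plus strand), it had 5494 normalized counts in mouse 5, a median of 13722, and 22212 in mouse 1. The highest mouse thus had 4.04 times the lowest, with mice 3, 4 and 5 at or below 7680 normalized counts and the other 5 mice at or above 12845. The mean was 12662 ± 5999 normalized counts (SD, n = 8). Its CV of 47.4% was far above the 1.0% of counting error, and 98.4% of genes had a lower CV. A sense intronic RNA, Gm43063, lies in Ampd1 and had 40.7 to 250 normalized counts.

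Ampd3 encodes the AMP deaminase best known from red blood cells, and it is a gene often followed in muscle that loses use or nerve supply. On chromosome 7 (110768206 to 110812405, plus strand), it had 1464 normalized counts in mouse 1, a median of 3328, and 5266 in mouse 3. Mouse 1 had the highest Ampd1 and the lowest Ampd3, and mice 3 and 4, at 5266 and 5223, had the highest Ampd3 and low Ampd1. Mouse 5, which had the lowest Ampd1, was near the median of Ampd3 at 3269 normalized counts. The mean was 3409 ± 1295 normalized counts (SD, n = 8), with a CV of 38.0%. Rnf141, on the opposite strand, overlaps Ampd3 and had 681 to 887 normalized counts.

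Ampd3 made up 3.99% of the sum of Ampd1 and Ampd3 per kb in mouse 1, a median of 12.7%, and 36.5% in mouse 4. The within-mouse ratio of Ampd1 to Ampd3 per length was lowest at 1.74 in mouse 4, had a median of 6.87, and was highest at 24.1 in mouse 1. Mice 3, 4 and 5 were at 1.74 to 2.67, mice 2, 7 and 8 between 6.83 and 7.97, and mouse 6 at 10.5. This 13.8-fold span was the widest of the 6 ratios, and Ampd1 was above Ampd3 per length in all 8 mice.

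**Figure D2:**
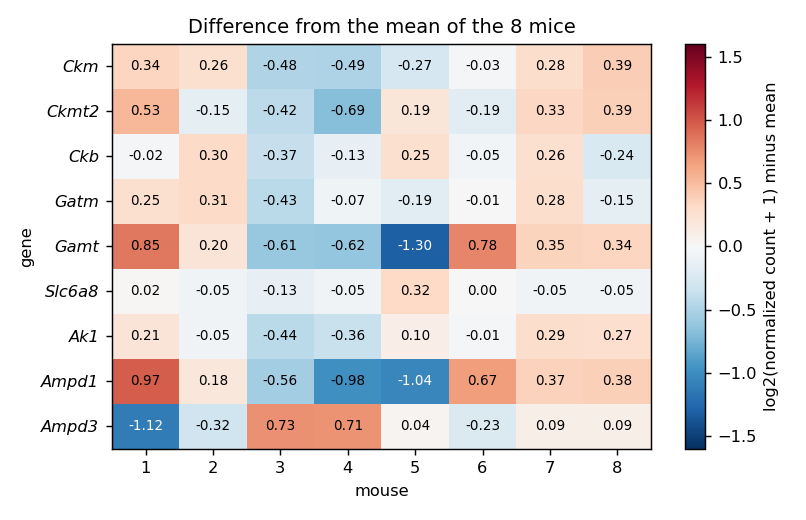
Difference of log2(normalized count + 1) from the mean of the 8 mice, for each gene (vertical) and mouse (horizontal), with blue below and red above the mean. Gamt and Ampd1 follow each other from mouse to mouse, mouse 1 has the lowest Ampd3 (-1.12) and mouse 5 stands out for Slc6a8 (0.32).

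Each gene was next compared with its neighbour in the order of mean level per kb, by an exact two-sided sign-flip permutation test of the within-mouse log2 ratio over 256 sign patterns, Benjamini-Hochberg adjusted over 8 comparisons. The smallest p that 8 mice allow is 0.0078. Ckm was above Ak1 by 3.86 ± 0.20 on the log2 scale (SD, 14.6-fold) in 8 of 8 mice (adjusted exact permutation p = 0.016). Ak1 was above Ampd1 by 0.72 ± 0.64 in 7 of 8 mice (adjusted exact permutation p = 0.031). Ampd1 and Ckmt2 were not separated, with a log2 ratio of 0.05 ± 0.62 (adjusted exact permutation p = 0.83). Below them, Ckmt2 was 5.46-fold above Ampd3 (2.45 ± 0.94 on the log2 scale, 8 of 8 mice, adjusted exact permutation p = 0.016), and Ampd3 was above Slc6a8 by 1.0 ± 0.64 on the log2 scale (7 of 8 mice, adjusted exact permutation p = 0.025). The mouse out of order in the last comparison was mouse 1, in which Ampd3 was lowest. With any one of mice 2, 3, 4, 5, 7 and 8 left out, Ak1 over Ampd1 had an adjusted exact permutation p of 0.062 and Ampd3 over Slc6a8 one of 0.05, at ratios of the same direction.

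The transporter was thus placed well above the enzymes of synthesis. Slc6a8 was 5.64-fold above Gatm per length (2.50 ± 0.31 on the log2 scale, 8 of 8 mice, adjusted exact permutation p = 0.016), and Gatm was 2.36-fold above Gamt (1.24 ± 0.66, 8 of 8 mice, adjusted exact permutation p = 0.016). Gamt and Ckb were not separated at 0.28 ± 0.83 on the log2 scale (6 of 8 mice, adjusted exact permutation p = 0.43), but Gamt was above Ckb by 0.80 with longest transcript lengths (adjusted exact permutation p = 0.045). In normalized counts per kb, the means ran from 78524 ± 19127 for Ckm through 606 ± 230 for Ampd3 to 17.7 ± 3.09 for Ckb (SD, n = 8). Of the 15135 genes above the count minimum, 99.8% had a lower level per kb than Ckm, 98.7% than Ak1 and 97.8% than Ampd1, but only 15.7% had a lower level than Ckb.

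Most of the 9 genes, but not all, had a CV between mice above the median of all genes. The median CV of the 9 genes was 24.4%, against 15.6% over all 15135 genes, and 8 of the 9 were above that median. CVs depend on level, so the spread was also set against the trend of genes of like abundance, as the biological coefficient of variation (BCV, the spread left after counting error) estimated by edgeR. For 6 of 9 genes the BCV was above the trend, as it was for 29.0% of the 15135 genes. The widest gaps were 39.5% against a trend of 17.2% for Ampd1, 38.4% against 21.5% for Gamt and 31.7% against 16.8% for Ampd3. Slc6a8, at 12.9% against 16.5%, and Ckb and Gatm were below theirs, although 62.7% of the 15135 genes had a lower ratio of BCV to trend than Gatm.

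Pairs of genes were then compared across mice by the correlation of log2(normalized count + 1), with exact permutation over all 40320 pairings and adjustment over the 36 pairs, which covers only pairs of these 9 genes. Of these, 23 were positive and 13 negative, 2 had an adjusted p under 0.05 and 8 an unadjusted one. Of the relations of the 9 genes with every other gene above the count minimum, 10.8% had an unadjusted exact permutation p under 0.05, and the 36 pairs share their genes and are not independent of each other. The AMP deaminase Ampd1 and the creatine synthesis gene Gamt had the closest relation, with Pearson's r = 0.971 (adjusted exact permutation p = 0.0018) and Spearman's rho = 0.976 (adjusted exact permutation p = 0.014). Without the 2 mice farthest from the median, r was 0.988. Such values were not particular to this pair, since 135 genes had an r above 0.9 with Ampd1 and 110 with Gamt. Mice 5, 4 and 3 were the lowest 3 for both genes, and mice 1 and 6 the highest for both.

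The mitochondrial creatine kinase Ckmt2 and the adenylate kinase Ak1 were the second pair. Their r was 0.934 (adjusted exact permutation p = 0.018), with rho = 0.857 (adjusted exact permutation p = 0.13). Without the 2 mice farthest from the median of Ckmt2, r was 0.945. Both genes were lowest in mice 3 and 4 and highest in mice 1, 7 and 8. With any one of mice 2, 3, 4, 6, 7 and 8 left out, the adjusted exact permutation p of this pair was 0.050 to 0.071, and r was 0.914 to 0.964 over the 8 omissions. With counts scaled to library totals, r was 0.875 (adjusted exact permutation p = 0.11).

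Of 8 pairs set by role, none had an adjusted p under 0.05. Ckm with Ak1 gave r = 0.842 (exact permutation p = 0.0092, adjusted 0.11; rho = 0.810), but r was 0.464 without mice 3 and 4, the 2 farthest from the median, and 0.775 and 0.780 without either alone. Ckm with Ckmt2 gave r = 0.791 (exact permutation p = 0.027, adjusted 0.16) and rho = 0.905, and r was 0.425 without mice 3 and 4 and 0.636 without the 2 mice farthest for Ckmt2. Ckm with Ampd1 gave r = 0.831 (exact permutation p = 0.018, adjusted 0.16) and 0.721 without 2 mice. The pair of AMP deaminases, Ampd1 and Ampd3, gave r = -0.752 (exact permutation p = 0.026, adjusted 0.16), and rho = -0.548. Their r was -0.877 without the 2 mice farthest from the median of Ampd1 and -0.635 without those farthest for Ampd3. Gatm and Gamt, the enzymes of consecutive steps, had r = 0.618 (adjusted exact permutation p = 0.24), and Ak1 and Ampd1 had r = 0.600 (adjusted exact permutation p = 0.25). For Ckm with Ckb, r was 0.343 (adjusted exact permutation p = 0.52), and for Gatm with Slc6a8 it was -0.085 (adjusted exact permutation p = 0.92). Both changed with the setting: with library totals Ckm with Ckb had r = -0.319, and Gatm with Slc6a8 had r = -0.677 with library totals and 0.622 without mouse 5. Without mouse 5, 5 pairs had an adjusted exact permutation p under 0.05, among them Ckm with Ckmt2 at r = 0.901, Ckm with Ak1 at r = 0.940 and Ckb with Gatm at r = 0.924. Counting error bears on each value of Ckb, given its 39 to 66 counts.

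**Figure D3:**
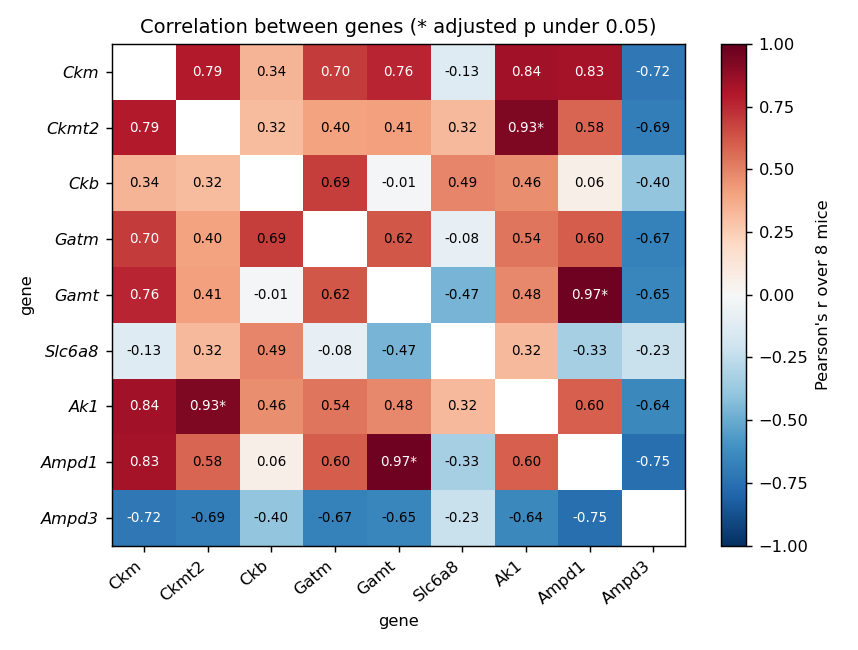
Pearson's r of log2(normalized count + 1) over the 8 mice for each pair of the 9 genes, with an asterisk where the adjusted exact permutation p is under 0.05. Only Gamt with Ampd1 and Ckmt2 with Ak1 carry one, and the row of Ampd3 is negative against all the others.

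Because muscle RNA holds several fibre and cell types, each gene was compared with the mean z-score of 9 marker lists (81 relations, adjusted together). Ckm followed the fast 2B fibre score with r = 0.987 (adjusted exact permutation p = 0.020), rho = 0.929 (adjusted exact permutation p = 0.18) and r = 0.990 without 2 mice. Mice 3 and 4 had the lowest fast fibre scores and the lowest Ckm, and mice 1, 2, 7 and 8 the highest of both. This was the only relation with an adjusted p under 0.05 within the 81, while 11 had an unadjusted one. The list was chosen with results known, so the test was also run over all 15130 genes outside the marker list. There 2240 genes (14.8%) had an unadjusted exact permutation p under 0.05 with the fast fibre score, in either direction, and none an adjusted one, with Ckm at an adjusted exact permutation p of 0.13. Of the 9 genes, 7 had an unadjusted one. With any one of mice 1 to 7 left out, the adjusted exact permutation p of Ckm within the 81 was 0.064 to 0.16, at r of 0.982 to 0.994.

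Among those 11, the fast fibre score also went with Ak1 (r = 0.877), Ckmt2 (r = 0.809), Ampd1 (r = 0.797), Gatm (r = 0.753) and Gamt (r = 0.715), and went against Ampd3 (r = -0.771). Without the 2 mice of most extreme fast score, r was 0.431, 0.431, 0.703, 0.627, 0.672 and -0.358 in the same order. The slow fibre score went with Ckmt2 (r = 0.864) and Ak1 (r = 0.810) and against Ampd3 (r = -0.711). These are 3 of the 9 genes, where 4.7% of all genes had an unadjusted exact permutation p under 0.05. Adjusted over all genes, the exact permutation p of each of the 3 was 0.996. Without the 2 mice of most extreme slow score, r was 0.780, 0.748 and -0.289. The same 3 genes went the same way with the fast fibre score. Sums of both marker lists were lowest in mouse 3 and highest in mouse 1, so the scores are not separate measures of fibre type. The 4 blood markers summed to 6022 to 23930 normalized counts and were highest in mouse 5. Gamt went against the blood score (r = -0.800, but -0.297 without the 2 mice of most extreme score). That is 1 of the 9 genes, where 5.76% of all genes had an unadjusted exact permutation p under 0.05 with this score, which is no result about the 9 genes. The adjusted exact permutation p of these 10 relations within the 81 was 0.22 to 0.32. No relation with the fibroblast, macrophage, endothelium, smooth muscle, Schwann cell or adipocyte score had an unadjusted p under 0.05. The part of fibre type and blood in the spread of the 9 genes was not tested.

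**Figure D4:**
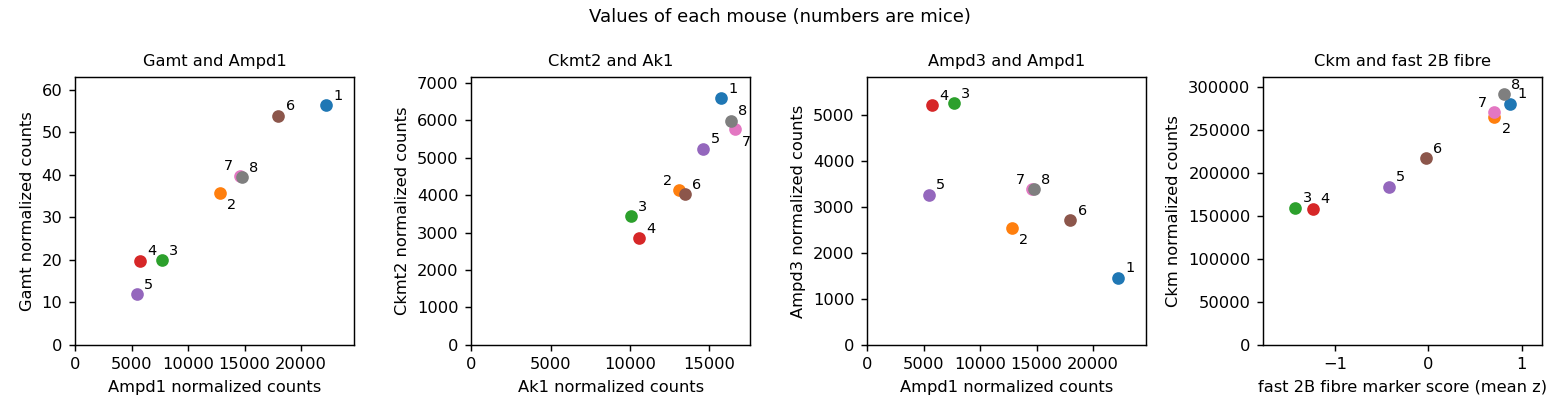
Normalized counts of each mouse (numbered) for Gamt against Ampd1, Ckmt2 against Ak1 and Ampd3 against Ampd1, and Ckm against the fast 2B fibre marker score, a mean z-score without unit. In the panels of Gamt, Ckmt2 and Ckm the mice lie along a rising line, and in that of Ampd3 mouse 1 has the highest Ampd1 and lowest Ampd3.

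Library measures moved with some of the genes too. The share of counts taken by the 10 most abundant genes was 18.8% to 26.2% per library, and none of the 9 genes was among those 10. The fast fibre marker Myh4 ranked first in every library, with 3.30% of counts in mouse 3 and 6.39% in mouse 1. The share is thus not independent of the fast fibre score. The genes mt-Atp6 and Gm10925 had nearly equal counts (2.343% and 2.342% in mouse 1). The same reads may therefore be counted for both, in the share and in the totals. The share of the 10 most abundant genes had r = 0.889 with Ckm, 0.895 with Gatm and -0.871 with Ampd3 (each adjusted exact permutation p = 0.042 over 27 relations). Adjusted over all 15135 genes, the exact permutation p was 0.17, 0.17 and 0.16, none of the 15135 had an adjusted p under 0.05, and 15.2% of them had an unadjusted one, as did 5 of the 9 genes. Their rho was 0.714, 0.857 and -0.833, and without the 2 mice of most extreme share r was 0.831, 0.798 and -0.780. Without the 2 mice farthest from the median of Ckm, its r with the share was 0.673. With 1 mouse left out, the adjusted exact permutation p within the 27 was under 0.05 for Ckm only without mouse 8 (0.021) and for Ampd3 only without mouse 7 (0.019), and for Gatm in no case. With counts scaled to library totals alone, 1 of the 3 relations had an adjusted p under 0.05, and none had once trends of the libraries on GC content and gene length were removed. With those trends removed, r was still 0.868, 0.888 and -0.859 (adjusted exact permutation p = 0.075, 0.060 and 0.060). Over all 8 mice, no gene had an adjusted p under 0.05 with total counts or with the slope on GC content, whereas without mouse 7 Gatm had r = -0.910 with that slope (adjusted exact permutation p = 0.019). The part of this share in the spread of Ckm, Gatm and Ampd3 was not tested.

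**Figure D5:**
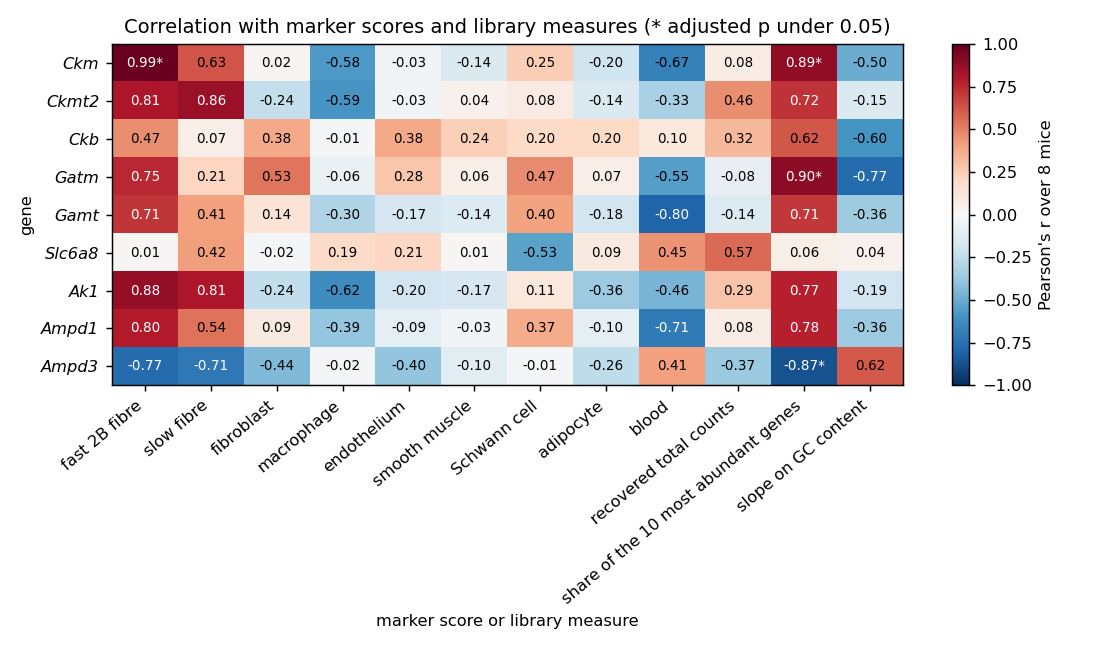
Pearson's r over the 8 mice of each gene with 9 marker scores and 3 library measures, with an asterisk where the exact permutation p adjusted over the relations of the 9 genes is under 0.05. Ckm with the fast 2B fibre score (r = 0.987) and Ckm, Gatm and Ampd3 with the share of the 10 most abundant genes carry one.

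The other genes of the pathway were listed by role, and 21 of 27 passed the count minimum, with CVs of 6.00% to 59.8% and a median of 15.3%. Of the purine nucleotide cycle that Ampd1 opens, Adss1, the muscle adenylosuccinate synthase, had 20785 ± 2246 normalized counts and a CV of 10.8%, and Adsl, the lyase that closes the cycle, had 2528 ± 316 (SD, n = 8). Both thus varied less between mice than Ampd1, whose CV was 47.4%. The broadly expressed synthase Adss had 349 ± 35.1 normalized counts.

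The adenylate kinases below were lower than Ak1. Ak6, a nuclear form, had 1486 ± 89.2 normalized counts and the lowest CV of the list at 6.00%. The mitochondrial forms Ak3 and Ak4 had 1222 ± 173 and 50.1 ± 10.8 normalized counts (SD, n = 8). Ak5 was at 2.19 to 12.8 normalized counts, Ak7 and Ak8 were at or below 5.52, and Ak9 was at 0 in 7 of 8 libraries. The remaining AMP deaminase, Ampd2, had 77.8 ± 9.14 normalized counts.

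The next genes act where ATP leaves the mitochondrion. The adenine nucleotide translocase Slc25a4 had 25613 ± 4691 normalized counts and its paralogue Slc25a5 had 661 ± 118 (SD, n = 8). The outer membrane channels Vdac1, Vdac3 and Vdac2 had 25310 ± 3876, 6596 ± 653 and 4669 ± 353 normalized counts. All of these but Slc25a5 were highest in mouse 8, which also had the highest Ckm.

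Genes of salvage and breakdown differed in level and in spread. The salvage enzymes Hprt, Adk and Aprt had 777 ± 162, 724 ± 73.0 and 235 ± 40.3 normalized counts (SD, n = 8). Nt5c1a, a cytosolic nucleotidase that acts on AMP, had the highest CV of the 21 genes above the count minimum, 59.8%, and ran from 27.4 normalized counts in mouse 8 to 141 in mouse 1. Xdh, which makes uric acid, had 1445 ± 329 normalized counts, with mice 3 and 4 the highest at 1972 and 1859. The nucleotidases Nt5c2 and Nt5e had 268 ± 40.2 and 72.0 ± 21.8, the nucleoside phosphorylase Pnp 155 ± 23.8, and the adenosine deaminase Ada 6.37 to 15.0 normalized counts.

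For each of the 9 genes, the 2 genes most alike across the 8 mice were taken from 15114 genes by r, as a description with no test. Cib2 (r = 0.988) and Tmod1 (r = 0.985) were most like Ckm, and 236 genes had an r above 0.9 with it. Eno3, the muscle enolase, was most like Ckmt2 (r = 0.978), followed by Jmjd7 (r = 0.966). Lrrc38 (r = 0.983) and Fn3k (r = 0.978) were most like Ampd1, and Srpr (r = 0.982) and Kiz (r = 0.977) most like Gamt. Eif4a-ps4 (r = 0.987) and Eif4a1 (r = 0.977) were most like Ampd3, but the former is a processed pseudogene that may share reads with the latter, so its value is uncertain. Ryk and Ctdnep1 (both r = 0.981) were most like Ak1, and Hif1an (r = 0.979) most like Gatm. For Ckb, within the limit of its low counts, the closest were Dck (r = 0.983) and Polr2a (r = 0.968). Tbc1d10b (r = 0.992) and L3mbtl3 (r = 0.958) were most like Slc6a8, for which only 23 genes were above 0.9, the fewest of the 9. All of these correlations share the 8 libraries and their size factors.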

How the data were processed

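Poly-adenylated RNA of 8 mice was sequenced. Per the submitters' processing notes and the methods, the authors trimmed reads with fastp, mapped them with STAR to GRCm38.p6, took gene counts with summarizeOverlaps, and scaled these by DESeq2. The deposited signal is the read count divided by 1 size factor per library: 100% of nonzero values were whole multiples of 1 read within a tolerance of 0.01. These normalized counts were used as deposited, and the recovered counts gave depth and count minimums. Symbols, positions and exon lengths came from GENCODE release M21 on GRCm38 (55227 of 55487 identifiers matched, with Adss1 listed there as Adssl1). 0 columns lacked a sample label.

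Only 1 condition was analysed, so no gene was tested between groups. Relations across mice used log2(normalized count + 1), exact two-sided permutation and Benjamini-Hochberg adjustment at 0.05, in Python 3.11.15 with scipy 1.17.1, and edgeR 4.0.16 in R 4.3.3 gave the dispersions. Both were tested on simulated data. Counts simulated for the permutation tests varied less between mice than these data and held no factor shared by most genes. That check therefore covers the code and not how the tests behave in data like these. Relations with the fibre and blood scores, the share of the 10 most abundant genes and each of the 9 genes were also tested over all 15135 genes (without the score's own markers or the gene itself). Named genes were the 9 members, 27 other pathway genes and the 2 genes with the highest r for each member, of which some are not reported here. The members, lists and tests were chosen with earlier results of these data known. Each sample is labelled as a replicate of 1 group. The counts are reads without molecular identifiers, so intervals cover counting error only. No libraries agreed within sampling noise: chi-square per degree of freedom was 16.1 to 119 over 28 pairs. Other settings tried were TMM factors from edgeR, DESeq2 1.42.0 size factors, library totals, a pseudocount of 5, no count minimum, longest transcript lengths, trends on GC content and gene length taken out of each library, and each mouse left out in turn.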

Additional observations from a re-analysis of the deposited data

Results flagged for a closer look

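Of 45 results tested for a mouse far from the other 7 by Dixon's ratio of gap to range (above the 95% critical value for 8 samples), 2 had one, where chance gives about 2.25. Slc6a8 had 1836 normalized counts in mouse 5 against 1352 to 1491 in the others, a gap of 0.713 of the range. The size of this gap rests on the deposited size factors, which for mouse 3 were 1.204, against 1.037 from library totals. The ratio of Ampd1 to Ampd3 per length was 24.1 in mouse 1 against 1.74 to 10.5 in the others, a gap of 0.608 of the range. Without mouse 1 the mean ratio was 5.56, compared with 7.87 over all 8 mice.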

How the results depend on the processing

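No paired analysis was possible because the 8 mice form a single group. Gamt with Ampd1 kept an adjusted exact permutation p under 0.05 under every alternative run (r = 0.966 to 0.992 with a mouse left out). With library totals, the count of pairs under 0.05 went from 2 to 1 (Ckmt2 with Ak1 was lost), relations with library measures went from 3 to 1, r of Ckm with Ckb turned to -0.319, and r of Gatm with Slc6a8 went from -0.085 to -0.677. With GC content and length trends removed, relations with library measures under 0.05 went to 0 (chosen after seeing the data, as were all alternatives of this family). There r with the share of the most abundant genes was still 0.868 for Ckm, 0.888 for Gatm and -0.859 for Ampd3. The cause was not tested. Leaving out a mouse gave 1 to 5 pairs, 0 to 1 marker relations (1 only without mouse 8) and 0 to 2 library relations, with fewer mice in each test. It moved r of Gatm with Slc6a8 from -0.477 to 0.622 (positive only without mouse 5), Ckm with Ak1 from 0.775 to 0.940, and Ckm with Ckmt2 from 0.690 to 0.901. For log2 ratios per length, the range was -0.075 to 0.22 for Ampd1 over Ckmt2 (negative without mouse 1, 2 or 6), 0.56 to 0.83 for Ak1 over Ampd1 and 0.88 to 1.16 for Ampd3 over Slc6a8, the last pair of comparisons each with an adjusted p not under 0.05 in 6 of 8 omissions. Longest transcript lengths gave 0.80 for Gamt over Ckb (adjusted exact permutation p = 0.045) and a Ckm to Ak1 ratio of 12.5. Counting error limits Gamt and Ckb, and 8 mice limit every correlation.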
